A study of Mus musculus with 75 samples.

Results

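Short open chromatin regions that lay inside broad stretches of acetylated histone H3 lysine 27 (H3K27ac) were described in nuclei of the mouse hypothalamus. A region qualified when it was listed in the ATAC table on chromosomes 1 to 19, was under 1500 bp long, and lay fully inside an H3K27ac region of 10000 bp or more. Of 48634 ATAC regions, 38713 were autosomal and under 1500 bp, and 11227 of these met the rule. The rule used positions and lengths only. The authors' regions were themselves defined from signal in this series, so the choice was not independent of signal. The broad H3K27ac region that holds an open region is called its host.

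ATAC-seq marks DNA that a transposase can reach, which in most tissues means promoters, enhancers and other sites that are cleared of nucleosomes. H3K27ac marks the nucleosomes beside active promoters and enhancers, and broad runs of it often span several such elements of genes tied to the identity of a cell type. Open sites inside a broad run are therefore commonly used as the candidate binding sites within it. Leptin is a fat-derived hormone that acts through the long receptor form LepRb on hypothalamic neurons that control feeding.

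All mice carried LepRcre/+ and SUN1-sfGFP/+, which places a green fluorescent tag on the nuclear envelope of cells that express the Cre driver, and were at least 2 months old. Hypothalami were pooled, and nuclei were sorted into GFPpos (labelled LepRb positive) and GFPneg (labelled LepRb negative). Lep2 mice were fasted for 36 h and received leptin at 5 mg/kg once, at 34 h. Lep24 mice were fasted for 36 h and received leptin at 5 mg/kg at 12, 24 and 34 h. Fast mice were fasted for 36 h and received saline at 12, 24 and 34 h, and Fed mice ate freely for 36 h. Sample names code the doses as SSL in Lep2, LLL in Lep24 and SSS in both Fast and Fed. These codes point to saline doses in Lep2 and Fed mice too, at times that were not stated. Each of the 8 combinations of treatment and sort had 2 ATAC and 2 H3K27ac libraries, 16 of each assay. No label states whether the 2 replicates of a group are separate pools, and the spread that the p-values measure may be technical. Both sorts are mixtures of cells, so fewer cells of a type and less signal per cell cannot be told apart. The tables pair no region with a gene, so markers of the sorted cell types, gene context and sequences were not analysed here.

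The values were the authors' normalised signal per region and library, and the files give no read totals, so depth is unknown. Median signal over the 11227 regions was 11.8 to 13.9 across the 16 ATAC libraries. They held 14.96 to 15.7% of each library's autosomal ATAC signal. Fast GFPpos replicate 2 stood apart on the second principal component of all ATAC regions (109.4, against -47.7 to 26.1 in the other 15 libraries), and 3.37% of the regions were at 0 in it, against 0.0891 to 1.57% elsewhere. Values were also coarsest in Fast GFPpos replicate 2. Its smallest value above 0 was 3.7, against 1.6 to 2.8 in the other libraries, and it had 9 distinct values below 20, against 11 to 40. Lep2 GFPpos replicate 2 stood apart on the third component (102.5, against -32.2 to 17.4). In H3K27ac, 6 libraries (replicate 1 of Lep2, Lep24 and Fed, GFPpos and GFPneg) formed a set with 0.0750 to 0.238% of signal on mitochondrial regions, against 0.0102 to 0.0384% in the other 10. Counts of calls, and the acetylation of the hosts named, are given with and without these libraries.

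Open regions inside broad H3K27ac had signal per kb between that of short open regions in shorter H3K27ac and that of regions outside it. Their median length was 738 bp and their median signal over the 16 libraries was 12.8, with quartiles of 9.08 and 18.6. Per kb of length, median signal was 18.3 inside broad H3K27ac, against 20.4 in the 18825 short autosomal regions inside shorter H3K27ac regions and 15.9 in the 6846 that lay outside H3K27ac. The upper quartiles per kb were 22.0, 26.1 and 19.9 in the same order. These are descriptions of fixed sets of regions, and no test was made of the difference between them. Another 1815 short autosomal regions crossed the edge of an H3K27ac region, 171 of them the edge of a broad one.

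The strongest region by mean signal lay at chr15:85464597-85465913 (mm9, as are all positions) and reached 160.2 at the lowest, 182.3 at the median and 278.0 at the highest in the 8 GFPpos libraries. In the 8 GFPneg libraries it had 178.0, 244.7 and 321.5. The groups overlapped, and the difference was not called (log2 -0.28 ± 0.14 SE, limma adjusted p = 0.235). GFPpos lay below GFPneg in all 8 pairs of libraries of the same treatment and replicate number, a pairing that no label states. The next 4 by mean signal lay at chr11:20100700-20102116, chr7:25861736-25863088, chr17:56970059-56971235 and chr14:61791133-61792400, with GFPpos medians of 181 to 203 and GFPneg medians of 187 to 233, and none of the 4 was called either. In GFPneg, replicate 2 lay above replicate 1 in every treatment at the strongest region (302.0 against 196.1 in Fast) and at each of these 4. GFPpos had the same order at the strongest region (278.0 against 188.6 in Fast) and at these 4. The exception was Lep2 GFPpos at chr14:61791133-61792400, with 159.3 in replicate 2 against 186.8 in replicate 1. At the other end, the region at chr14:24670161-24670364 was listed at 0 in all 16 libraries. The next weakest, at chr8:12778126-12778682, had a median of 0 in both sorts and reached 1.9 in GFPpos and 1.6 in GFPneg.

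At the length limit, the 2 longest regions kept were 1499 bp long, at chr15:79913258-79914756 and chr2:151795829-151797327, with 35.1 and 29.3 signal per kb. The 2 shortest left out were 1500 bp long, at chr5:120881101-120882600 and chr6:142704841-142706340, with 17.3 and 31.5 signal per kb. At the host limit, hosts of 10001 and 10003 bp held 1 open region each, with 28.9 and 20.5 signal per kb. H3K27ac regions of 9998 bp just below the limit held 1 each, with 19.9 and 40.2.

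Most broad H3K27ac regions held at least 1 short open region, and the count grew with length. Of 9259 broad autosomal regions, 5697 (61.5%) were hosts. The other 3562 held none that lay fully inside and was short enough, and 2507 of them overlapped no ATAC region at all. Hosts had a median length of 16234 bp, against 12883 bp for broad regions without one. Their median H3K27ac signal per kb was 20.7, against 15.2 in broad regions without one and 14 in those that overlapped no ATAC region.

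Among hosts, 2941 (51.6%) held 1 open region, 1570 held 2, 598 held 3, 252 held 4 and 336 held 5 or more. Those 336 hosts held 2344 of the 11227 open regions (20.9%). The share of broad regions that were hosts was 48.3% in the shortest length class, which began at 10000 bp, 62.5% at 15000 to 20000 bp and 97.5% at 50000 bp or more. The number per 10 kb of broad region moved less, at 0.583, 0.582 and 0.752 in these length classes. Spearman's rho between length and number was 0.42 over the 9259 broad regions, where the authors' division of H3K27ac into touching regions sets the lengths. Only 1210 broad regions touched no other H3K27ac region, and 525 of them were hosts.

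**Figure D1:**
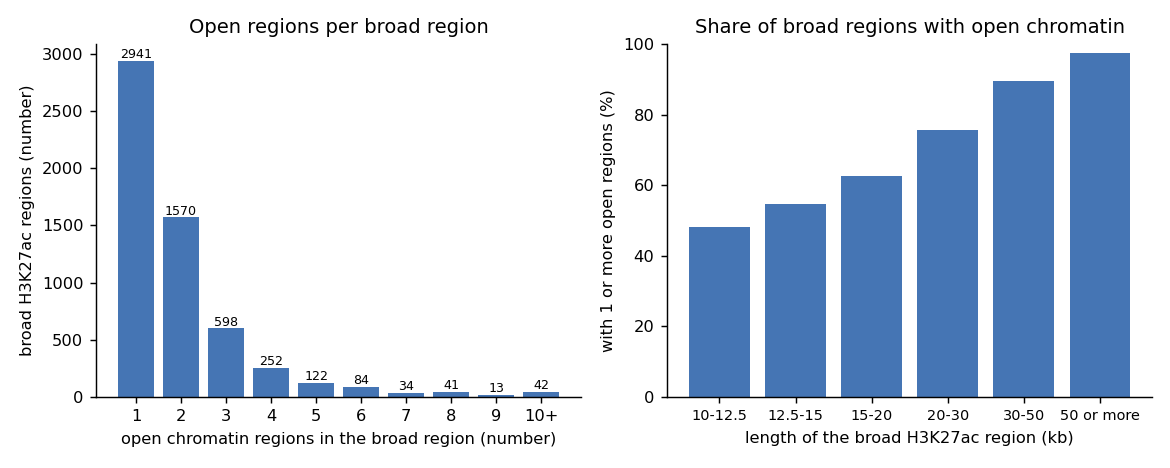
The left panel counts broad H3K27ac regions by how many short open regions they held, as bars from 0, and the right panel gives the share of broad regions with 1 or more, by length class in kb. Hosts with 1 open region (2941) outnumbered those with 2 (1570), and the share with any grew to 97.5% in the longest class.

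The host with the most open regions was also the longest broad region, 293730 bp on chromosome 18, with 30. Signal per kb of these 30 lay between 13.2 and 28.3, with a median of 16.6, and together they covered 8.50% of the host. Of the 29 tested, 1 was called higher in GFPpos and none lower. The next hosts lay at chr15:27667533-27900149 with 26 open regions, chr2:32980807-33151575 and chr6:31001538-31151454 with 19 each, and chr8:122769984-122908868 with 18. Each of these 4 had 1 called region (higher in the first 3 and lower in the last), and their median log2 differences between sorts were -0.06, 0.04, 0.22 and 0.03. Host acetylation did not pass the test in any of the 5 with all 16 libraries (limma adjusted p = 0.311 to 0.937). With the 10 H3K27ac libraries outside the set of 6, the host on chromosome 18 was called higher in GFPpos (log2 0.23, limma adjusted p = 5.94e-06), the one on chromosome 8 was called lower (log2 -0.35, limma adjusted p = 1.13e-07) and the other 3 were not called.

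Inside hosts, open regions were spread along the length with fewer at the ends. The first and last 10% of host length held 6.23% and 6.45% of them, and each of the 8 segments of 10% between held 10.1 to 11.8%. The rule leaves out regions that cross an edge, which lowers the share at the ends by construction. Median signal per kb was 18.6 and 18.8 in the end segments and 18.0 to 18.4 between. The median distance to the nearer edge was 5062 bp. Neighbouring open regions of a host were a median of 4528.5 bp apart over 5530 pairs, with quartiles of 1801 and 8790 bp. Hosts with 1 open region had 18.9 signal per kb at the median, and the 42 hosts with 10 or more had 17.2.

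Between the sorts, 1067 of the 10779 tested open regions were called, 556 higher and 511 lower in GFPpos nuclei (limma on log2 of signal plus 1, Benjamini-Hochberg adjusted p under 0.05 over 43767 ATAC regions). The 448 others were not tested because their mean signal lay in the lowest 10% of the table, or under 5.44. The called share was 9.90%, against 9.80% of all ATAC regions tested, so it is near the background. The higher share was 5.16% against 4.66% of all regions, and the lower share was 4.74% against 5.13%. At an unadjusted p under 0.05 the counts were 2791, or 25.9% against 25.2%. The median log2 difference over the tested open regions was 0.01, against -0.01 over all regions.

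Changes were moderate in size. The regions called higher had a median log2 difference of 0.78, and 101 of the 556 (18.2%) were at least 2-fold higher, against 19.7% of all ATAC regions called higher. The regions called lower had a median of -0.90, and 198 of the 511 (38.7%) were at least 2-fold lower, against 41.5% of all regions called lower. The largest values were 1.68 and -2.13 on the log2 scale. All 8 GFPpos libraries lay above all 8 GFPneg libraries at 84 open regions (0.779%, against 0.674% of all regions tested) and below them at 98 (0.909%, against 0.923%). The difference had 1 sign in all 8 pairs of libraries of the same treatment and replicate number at 318 of the 556 and 315 of the 511. These regions were called on the same values, which favours 1 sign, and the share over all called ATAC regions was not computed.

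The number of calls moved with the libraries used. It was 1085 (481 higher, 604 lower) without the 2 ATAC libraries that stood apart, or 10.1% of open regions in broad H3K27ac against 9.49% of all ATAC regions tested. Replicate 1 libraries alone gave 1206 (11.2% against 11.1%), and replicate 2 libraries alone gave 268 (2.49% against 2.81%). Leaving out a replicate 2 library of GFPneg gave 650 calls for Lep2, 711 for Lep24, 648 for Fast and 670 for Fed, and the other 12 libraries left out in turn gave 726 to 1396. Over these 16 fits the called share ran from 6.01 to 12.95%, and that of all ATAC regions from 5.61 to 12.99%, so the count moved with that of the whole table.

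**Figure D2:**
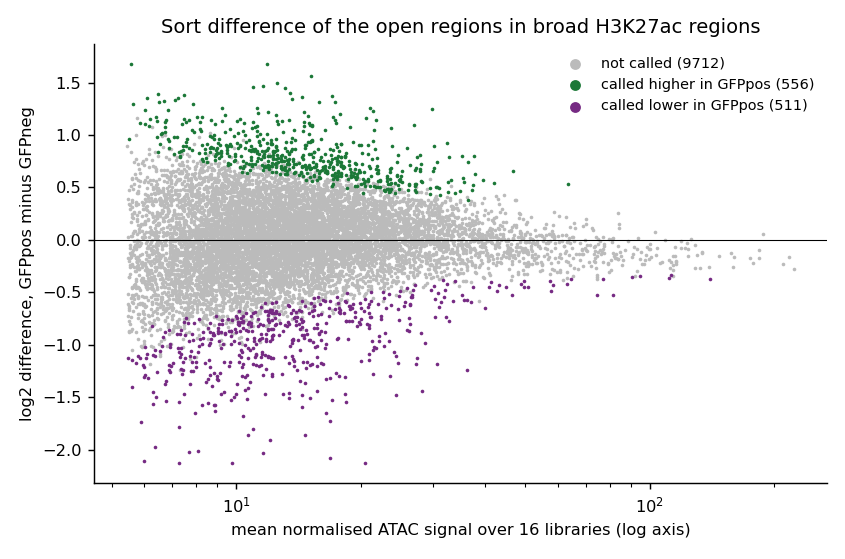
Each point is 1 of the 10779 tested open regions, with its mean normalised ATAC signal over 16 libraries on a log axis and its log2 difference between sorts (GFPpos minus GFPneg). Green points are the 556 called higher and purple points the 511 called lower, and the scatter narrows as mean signal grows.

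Short open regions outside H3K27ac had a different balance. There 195 of 4145 tested (4.70%) were called higher and 553 (13.3%) lower in GFPpos, against 5.16% and 4.74% inside broad H3K27ac and 4.70% and 4.65% inside shorter H3K27ac. The outside set was weaker, and only 60.5% of it passed the filter on low signal, against 96.0% inside broad H3K27ac. At a mean signal of 10 to 15, where both sets had many regions, 15.5% of 928 were called lower outside H3K27ac, against 5.31% of 3373 inside broad H3K27ac. At a mean of 20 to 30, 6.59% of 1457 open regions in broad H3K27ac were called higher, against 4.47% of 2348 inside shorter H3K27ac. The order was reversed at a mean under 10 (3.56% in broad against 4.18% in shorter H3K27ac) and at 10 to 15 (5.6% against 6.79%). At 15 to 20 and at 30 or more, the share called higher was again larger in broad H3K27ac. Differences between these sets of regions were not tested.

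The 10 open regions with the smallest p among those called higher, and with 1 sign in all 8 pairs, are called H1 to H10. None overlapped between sorts, and they were 2.34 to 2.96-fold higher in GFPpos on the log2(signal + 1) scale. H1, at chr6:5324651-5325569 (919 bp), had 37.2 at the lowest, 41.5 at the median and 50.8 at the highest in GFPpos libraries, against 12.3, 18.5 and 22.2 in GFPneg libraries. It was 2.37-fold higher (log2 1.24 ± 0.14 SE, n = 8 libraries each, limma adjusted p = 2.43e-05). H2, at chr7:20401364-20402171, had 17.5, 25.8 and 30.9 in GFPpos, against 6.1, 8.3 and 12.9 in GFPneg. Even its lowest GFPpos library lay above every GFPneg library, and it was 2.58-fold higher (adjusted p = 4.70e-05).

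H3, at chr4:101358806-101359463, had 18.4, 31.1 and 41.6 in GFPpos, against 10.3, 11.7 and 14.3 in GFPneg. Its GFPneg libraries were tightly grouped and its GFPpos libraries spread more widely, with log2 1.26 ± 0.16 SE and an adjusted p of 6.06e-05. H4, at chr3:101322561-101323316, had 12.5, 19.2 and 27.4 in GFPpos, against 5.3, 6.5 and 10.8 in GFPneg. H5, at chr1:193472842-193473565, had 13.0, 21.1 and 30.9 in GFPpos, against 5.7, 7.0 and 9.6 in GFPneg. Both were about as different as H3 in fold (2.64 and 2.58), and H5 was the 1 of the 20 that missed the threshold among replicate 2 libraries alone (limma adjusted p = 0.0685).

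H6, at chr14:41520488-41521107, had a GFPpos median of 23.4 and a GFPneg median of 9.4. H7, at chr2:174649891-174650514, had medians of 23.3 and 7.0 and the largest fold of the 10, 2.96. H8, at chr4:103419336-103420207, had 16.8 and 6.0. H9, at chr6:125304537-125305242, had 19.6 and 9.1, and H10, at chr1:35982811-35983866, had 30.9 and 12.6. In H7 the lowest GFPpos library (11.8) and the highest GFPneg library (11.6) almost met, while in H9 they were further apart (16.1 and 11.1).

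The 10 open regions called lower by the same rule are L1 to L10. Again none overlapped between sorts, and they were 2.16 to 4.38-fold lower in GFPpos. L1, at chr1:184405083-184405908, had 4.0 at the lowest, 6.4 at the median and 15.1 at the highest in GFPpos libraries, against 17.7, 25.2 and 37.2 in GFPneg libraries (3.31-fold lower, adjusted p = 1.94e-05). L2, at chr17:10676794-10677389, had 1.9, 3.1 and 4.6 in GFPpos, against 13.1, 15.7 and 24.3 in GFPneg. It had the largest log2 difference of any open region in broad H3K27ac, -2.13 ± 0.24 SE, with the same adjusted p as L1. L3, at chr14:75883661-75884824, was among the stronger of the 10, with 15.2, 19.9 and 34.3 in GFPpos against 39.1, 51.5 and 64.2 in GFPneg.

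L4, at chr9:45295158-45295794, had 5.3, 7.4 and 8.7 in GFPpos, against 18.2, 20.9 and 26.6 in GFPneg, the tightest GFPpos group of the 10 relative to its median. L5, at chr18:5159585-5160376, had GFPpos and GFPneg medians of 8.1 and 21.4. L6 and L8 lay 10335 bp apart on chromosome 15, in neighbouring hosts with 1991 bp between them. L6, at chr15:88669666-88670260, had 3.2, 4.5 and 11.8 in GFPpos against 17.7, 21.8 and 29.7 in GFPneg. L8, at chr15:88680596-88681406, had 0.0, 8.9 and 13.1 in GFPpos against 16.8, 31.8 and 49.8 in GFPneg, and its 0 was in Lep2 GFPpos replicate 2. L7, at chr17:44167634-44168432, had medians of 6.5 and 21.5. L9, at chr16:91305745-91306316, had 4.5 and 17, and L10, at chr15:67902633-67903632, had 14.5 and 33.3. All 20 named regions kept their direction in each alternative that was run.

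**Figure D3:**
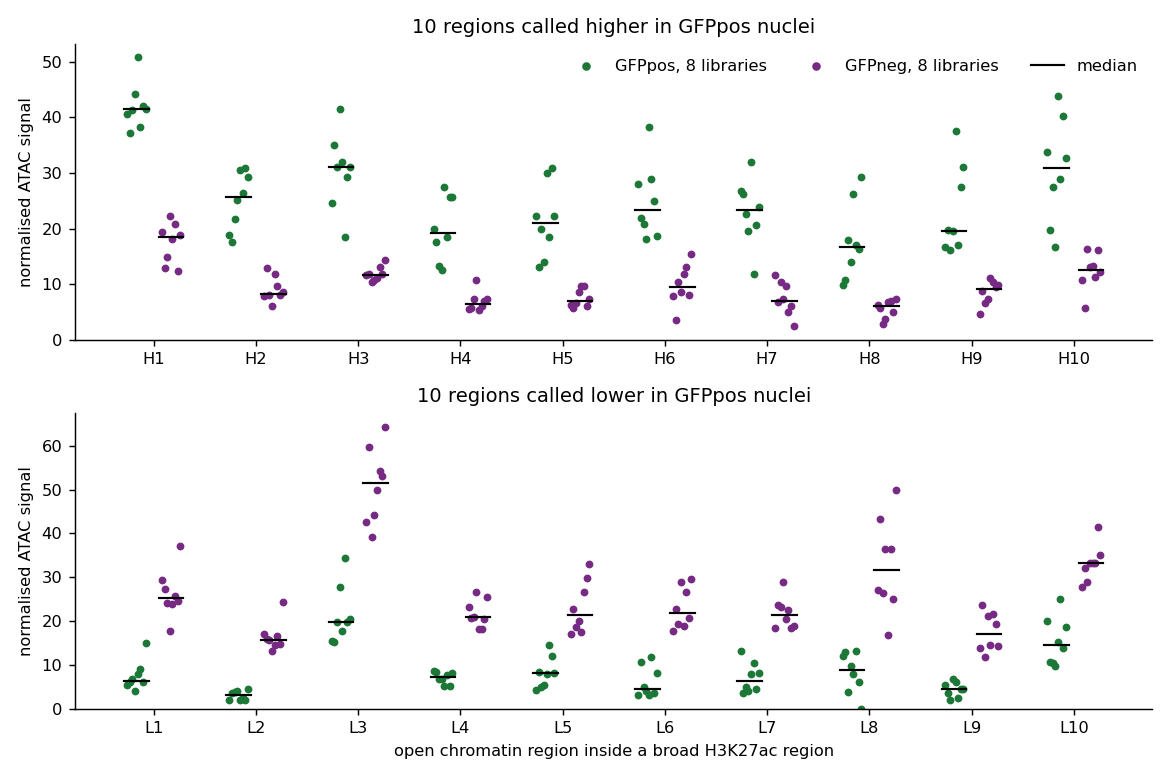
Normalised ATAC signal of the 10 open regions called higher (H1 to H10, top) and the 10 called lower in GFPpos (L1 to L10, bottom), with a point for each of the 8 GFPpos libraries (green, left) and 8 GFPneg libraries (purple, right) and a bar at the median. The 2 groups of points do not overlap in any of the 20, and the lowest point is the 0 of L8.

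Open regions of 1 host moved together only weakly. The log2 difference between sorts of neighbouring open regions in 1 host had a Pearson r of 0.12 over 5081 pairs, and that of consecutive ones in different hosts 0.05 over 5250 pairs. Neighbours share their libraries and lay far closer together within a host than between hosts, where the median gap was 78916 bp. The spread of log2 differences within hosts with at least 2 tested regions was 0.38 (SD), against 0.41 over all such regions. Calls fell in 957 hosts, 864 of which had a single called region.

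In the other 93 hosts, 28 had calls all higher, 28 all lower and 37 both. Beside a region called lower, 56 of 436 neighbours (12.8%) were called lower and 22 (5.05%) higher, against 4.74% and 5.16% of all tested open regions in broad H3K27ac. Beside a region called higher, 30 of 474 (6.33%) were called higher and 22 (4.64%) lower. These shares are descriptions, since neighbours are not independent of each other.

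In 1 host, at least 3 open regions were present and all were called. It spans chr17:10626397-10711334 (84938 bp), holds L2, and all its 5 open regions were lower in GFPpos. Their GFPpos medians were 5.5, 3.6, 3.1, 3.3 and 4.8 from the lowest to the highest coordinate, and their GFPneg medians were 12.0, 10.5, 15.7, 10.9 and 13.6. The GFPpos and GFPneg libraries did not overlap at the last 4 of the 5, and log2 differences were -1.20, -2.12, -2.13, -1.55 and -1.58. The H3K27ac signal of the host was 667 ± 456 in GFPpos and 2188 ± 376 in GFPneg (SD, n = 8 each), a log2 difference of -1.95 with a limma adjusted p of 0.00264 (log2 -2.41 with the 10 libraries, limma adjusted p = 1.18e-20). The 5 open regions covered 3.06% of the host.

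Other hosts held called regions of opposite direction. The host at chr15:88677659-88698843 held L8, which was lower, and a second open region at chr15:88689353-88690202 that was higher. The second had 12.1, 23.8 and 29.2 at the lowest, median and highest in GFPpos, against 8.9, 11.9 and 16.2 in GFPneg (log2 0.88 ± 0.17 SE, limma adjusted p = 0.00264). Acetylation of that host was lower in GFPpos, at 610 ± 49.1 against 896 ± 107 in GFPneg (SD, n = 8 each, log2 -0.55, limma adjusted p = 0.00608), and also with the 10 libraries (log2 -0.72, limma adjusted p = 6.20e-13). Both open regions thus changed in opposite directions within a host that was lower as a whole.

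In a host of 15369 bp that begins on chromosome 8 at 72733153, the region at chr8:72742652-72743915 was higher, with 19.1, 28.2 and 47.9 in GFPpos against 7.4, 12.8 and 16.3 in GFPneg (log2 1.14 ± 0.20 SE, limma adjusted p = 0.00101). Within 10 kb of it, chr8:72740339-72740836 was lower, with 0.0, 5.8 and 18.4 in GFPpos against 4.7, 16.7 and 23.3 in GFPneg (limma adjusted p = 0.0437). The sorts overlapped at the second of these and not at the first. Host acetylation averaged 374 in GFPpos and 388 in GFPneg and was not called with 16 libraries (limma adjusted p = 0.788), while with the 10 libraries it was called lower (log2 -0.16, limma adjusted p = 0.0319). A host of 69903 bp on chromosome 9 held 9 open regions with 1 higher and 1 lower, and a host of 147315 bp on chromosome 11 held 15 with 1 of each. On chromosome 4, a host of 45171 bp held 2, with 1 of each. Of these 5 hosts with calls in both directions, the one on chromosome 15 alone was called in acetylation with 16 libraries, and all 5 were called lower with the 10 libraries.

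The open regions called between sorts were set beside the acetylation of their hosts, and a larger share of those called lower than of those called higher lay in a host called in the same direction, a difference that was not tested. With all 16 H3K27ac libraries, 800 of the 5697 hosts were called between sorts (14%, against 9.22% of 113725 H3K27ac regions), 263 higher (4.62% against 3.26%) and 537 lower (9.43% against 5.97%). With only the 10 libraries outside the set of 6, 3588 hosts were called (63.0%, against 32.4% of all H3K27ac regions), 1576 higher (27.7% against 16.4%) and 2012 lower (35.3% against 16%). The set of 6 alone called 851. The set is made up of replicate 1 libraries, and with all 16 a replicate block called 1688 hosts (664 higher, 1024 lower) and a block by pair of libraries 2674 (1170 higher, 1504 lower). Among all H3K27ac regions the set of 6 called 4663, the replicate block 18444 and the block by pair 27791. Longer regions hold more signal, and the relation of length to the share called was not tested.

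Of the 511 open regions called lower, 199 (38.9%) lay in a host called lower and 4 (0.783%) in a host called higher. Of the 556 called higher, 57 (10.3%) lay in a host called higher and 10 (1.8%) in a host called lower. Of the tested open regions that were not called, 4.63% lay in hosts called higher and 7.30% in hosts called lower. Seen from the hosts, 199 of 918 tested open regions in hosts called lower (21.7%) were called lower, and 57 of 511 in hosts called higher (11.2%) were called higher. The 489 remaining regions called higher and 308 called lower lay in hosts that were not called.

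With the 10 libraries, 379 of the 511 regions called lower (74.2%) lay in hosts called lower, and 279 of the 556 called higher (50.2%) lay in hosts called higher. There, 37.2% and 26.0% of the open regions that were not called lay in such hosts. Spearman's rho between the log2 difference of an open region and that of its host was 0.28 over 10779 open regions with 16 libraries and 0.30 with 10. The 2 assays come from different libraries, and open regions of 1 host share its value.

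Among the named regions the pattern was the same on the lower side and mixed on the higher side. All 10 hosts of L1 to L10 were called lower in acetylation, with log2 differences of -1.95 to -0.42, and all 10 again with the 10 libraries (-2.41 to -0.48). Of the hosts of H1 to H10, 5 were called higher (those of H1, H2, H3, H4 and H6) and 9 had a positive difference. The host of H3 had the largest, with H3K27ac of 365 ± 35.4 in GFPpos and 192 ± 95.6 in GFPneg (SD, n = 8 each, log2 1.07, limma adjusted p = 0.0123). The host of H9 had 226 ± 64.4 in GFPpos and 255 ± 50.6 in GFPneg, a log2 difference of -0.20 (limma adjusted p = 0.542). With the 10 libraries that host was called lower (log2 -0.33, limma adjusted p = 0.00284), while H9 itself was higher, and the other 9 hosts of H1 to H10 were called higher.

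**Figure D4:**
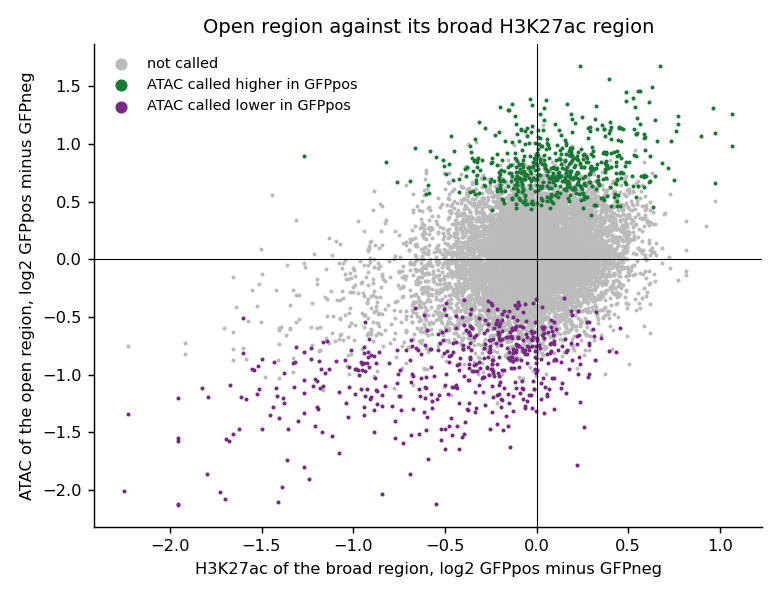
Each point is a tested open region, with the log2 difference in H3K27ac of its host on the horizontal axis (16 libraries) and its own log2 difference in ATAC signal on the vertical axis, both GFPpos minus GFPneg. Regions called lower (purple) reach far into the lower left, and 199 of the 511 lay in a host called lower, while those called higher (green) lie on both sides of 0.

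The authors' deposited table lists 140 ATAC regions at an FDR under 0.05 for GFPpos against GFPneg. In the authors' deposited table, 38 of these are short open regions inside broad H3K27ac, 13 with a positive and 25 with a negative log2 fold change, which run from -2.64 to 1.54. All 38 were also called here, in the same direction as in the authors' deposited table. Both results come from libraries of the same series, so the match is not independent support. The fit here called 4287 ATAC regions at the same cut, 1067 of them open regions in broad H3K27ac. Most of the calls reported here are therefore not among the authors' 140.

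Fasting and leptin called no open region in broad H3K27ac in either sort. In GFPpos nuclei, Fast against Fed gave 0 calls by limma (0.0% of all ATAC regions), with 717 at an unadjusted p under 0.05 (6.65%, against 6.56% of all regions) and a smallest adjusted p of 0.331. Lep2 against Fast gave 0 (0.0% of all), with 857 at the unadjusted level (7.95% against 7.85%) and a smallest adjusted p of 0.165. Lep24 against Fast gave 0 (0.0% of all), with 748 (6.94% against 6.70%) and a smallest adjusted p of 0.331. The 3 comparisons share Fast libraries, so they are not independent of each other.

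In GFPneg nuclei each of the same comparisons gave 0 calls by limma (0.0% of all regions in each). The unadjusted counts were 210 for Fast against Fed (1.95% against 1.97%), 177 for Lep2 against Fast (1.64% against 1.5%) and 179 for Lep24 against Fast (1.66% against 1.49%). The differences between the sorts in these treatment changes also gave 0 calls by limma each (0.0% of all regions). Their unadjusted counts were 442 for Fast against Fed (4.10% against 3.95%), 450 for Lep2 against Fast (4.17% against 3.98%) and 373 for Lep24 against Fast (3.46% against 2.97%). In every treatment comparison the unadjusted share was near that of all regions. The fit used 1 spread per region over all 8 groups, so GFPpos libraries also set the error of the GFPneg comparisons. Within GFPneg the unadjusted shares lay below the 0.05 that the cut alone would give, and within GFPpos they lay above it. The counts of the 2 sorts can therefore not be compared directly.

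With 2 libraries a group, the 95% interval of a treatment difference within a sort reached 0.86 on the log2 scale to either side at the median region, against 0.43 for the sort difference and 1.21 for the difference between sorts in a treatment change. These are intervals of 1 region before adjustment, so a call after adjustment over 43767 regions needed a difference larger than the region's interval. In Lep2 against Fast in GFPpos, a log2 difference of 3.48 was not called (limma adjusted p = 0.165). The middle 50% of log2 differences lay between -0.30 and 0.28 for Fast against Fed in GFPpos and between -0.24 and 0.22 in GFPneg. For Lep2 against Fast it lay between -0.30 and 0.32 in GFPpos and between -0.23 and 0.22 in GFPneg. For Lep24 against Fast it lay between -0.31 and 0.29 in GFPpos and between -0.23 and 0.22 in GFPneg. The spread was wider in GFPpos in all 3, and the 2 libraries that stood apart are both GFPpos.

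**Figure D5:**
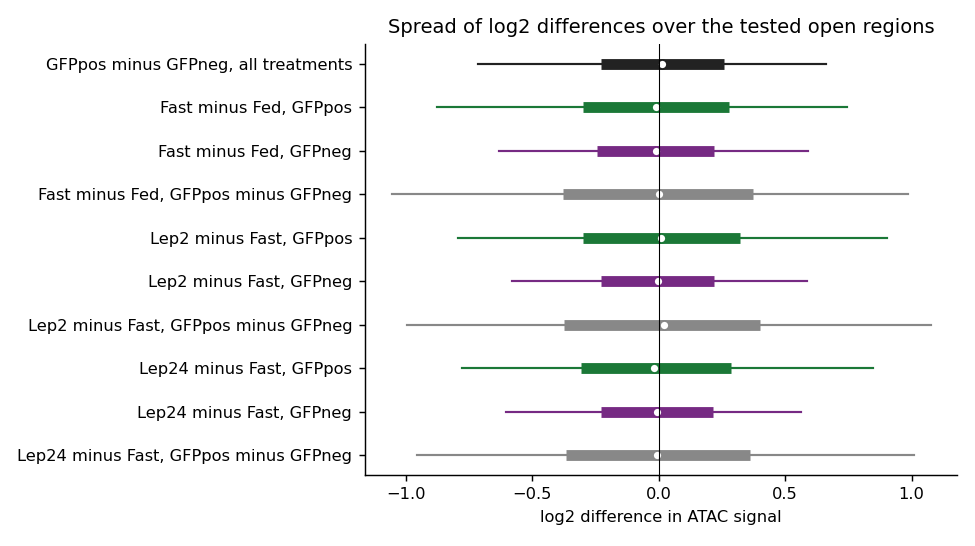
For each comparison, the circle is the median log2 difference in ATAC signal over the 10779 tested open regions, the thick bar spans the middle 50% and the thin line the 5th to the 95th percentile. All medians lie near 0, and the ranges are wider in GFPpos (green) than in GFPneg (purple) for each treatment comparison.

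The absence of treatment calls in GFPpos turned on single libraries and, for Lep2 against Fast, on the settings. With all 16 libraries, a pseudocount of 5 in place of 1 and a replicate block each called 2 open regions higher in Lep2 against Fast. Among all ATAC regions the same fits called 2 and 3. Without the 2 that stood apart, a few open regions were called, lower in Fast against Fed and higher in Lep2 against Fast and in Lep24 against Fast. That fit also called other ATAC regions in Fast against Fed and in Lep24 against Fast, but none in Lep2 against Fast. It leaves a single Fast GFPpos library, replicate 1, which is assumed to vary like the other groups. Without Fast GFPpos replicate 1, where replicate 2 (the library that stood apart) remained alone, the counts were 304 (17 higher, 287 lower), 327 (299 higher, 28 lower) and 316 (293 higher, 23 lower) for the same comparisons. They were part of 1382, 1492 and 1559 calls among all ATAC regions. Without Lep2 GFPpos replicate 1, open regions were called in Lep2 against Fast, most of them lower. In the differences between sorts, leaving out Fast GFPpos replicate 1 gave calls in each comparison. Leaving out Lep2 GFPpos replicate 1 gave some for Lep2 against Fast. Open regions in broad H3K27ac were 10779 of the 43767 ATAC regions tested, so most calls would fall in other regions in any case.

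The regions with the smallest p in GFPpos show how few libraries carried them. At chr9:63638970-63639976 the signal was 28.3 and 25.7 in Lep2, 21.0 and 15.8 in Lep24, 8.7 and 0.0 in Fast, and 14.3 and 16.7 in Fed. It had a log2 difference of 3.17 ± 0.58 SE in Lep2 against Fast (limma adjusted p = 0.165) and was also second in Lep24 against Fast (log2 2.63 ± 0.58 SE, limma adjusted p = 0.331). The value of 0 in Fast was replicate 2, where the smallest value above 0 at any ATAC region was 3.7. In GFPneg the same region had 16.1 and 18.8 in Lep2, 18.9 and 19.9 in Lep24, 15.4 and 11.9 in Fast, and 15.6 and 24.4 in Fed. In Lep2 against Fast it was called with a pseudocount of 5 (limma adjusted p = 0.0318) and with a replicate block (limma adjusted p = 0.0424). Its difference there was 1.53 without Fast GFPpos replicate 2 and 4.81 without replicate 1, and in Lep24 against Fast 0.99 and 4.26.

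At chr5:27929929-27930570, the second in Lep2 against Fast, GFPpos had 24.0 and 36.3 in Lep2, 11.9 and 13.1 in Lep24, 6.5 and 0.0 in Fast, and 15.2 and 4.0 in Fed. Its Lep2 libraries were the highest 2 of the 8, its log2 difference was 3.48 ± 0.66 SE and its limma adjusted p was 0.165. It was called in the same 2 alternatives, with the same adjusted p-values as the region on chromosome 9. The difference was 2.03 without Fast GFPpos replicate 2 and 4.93 without replicate 1. At chr10:92545709-92546318 GFPpos had 9.5 and 9.9 in Lep2, 15.9 and 13.1 in Lep24, 0.0 and 6.1 in Fast, and 16.1 and 12.5 in Fed. This region had the smallest p of the open regions in both Fast against Fed (log2 -2.51 ± 0.55 SE) and Lep24 against Fast (log2 2.53 ± 0.55 SE), each with a limma adjusted p of 0.331, and its 0 was in Fast replicate 1. Without that library the 2 differences were -1.10 and 1.12, and without Fast replicate 2 they were -3.93 and 3.95. At chr4:123300911-123301527, the second in Fast against Fed, GFPpos had 4.3 and 0.0 in Fast and 12.4 and 12.5 in Fed, with log2 -2.55 ± 0.57 SE and a limma adjusted p of 0.386. Without Fast GFPpos replicate 2 it was -1.34, and without replicate 1 it was -3.75. The 0 values in Fast on chromosomes 5 and 4 were also in replicate 2, where no value lay between 0 and 3.7.

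No region of GFPneg came near the threshold, in a fit whose spread was shared with the GFPpos libraries. At chr2:129389642-129390399 Fast had 5.5 and 7.8 and Fed had 15.6 and 23.3. At chr12:101568554-101568874 Lep24 had 0.0 and 2.2 and Fast had 10.1 and 5.7. At chr7:53064478-53064877 Lep2 had 4.1 and 0.0 and Fast had 10.1 and 7.8. The groups of 2 did not overlap in any of these, which the choice by smallest p favours. None passed the test (limma adjusted p = 1.00).

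The second in each GFPneg comparison lay at chr19:46580890-46581986 for Fast against Fed, chr19:53094509-53094899 for Lep2 against Fast and chr11:52814089-52815176 for Lep24 against Fast. The 3 had log2 differences of -1.27, 1.69 and -1.49, and none passed the test either. Among the differences between sorts, the region with the smallest p lay at chr12:89665214-89666212 for Fast against Fed (log2 2.07 ± 0.54 SE). For Lep2 against Fast it lay at chr1:133879268-133880101 (log2 2.03 ± 0.51 SE), and for Lep24 against Fast at chr4:148264868-148265744 (log2 -2.22 ± 0.57 SE). At the first of these, Fast had 30.3 and 24.1 and Fed had 10.5 and 16.7 in GFPpos, while Fast had 10.8 and 9.8 and Fed had 18.6 and 28.9 in GFPneg.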

How the data were processed

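ATAC-seq and H3K27ac ChIP-seq of sorted hypothalamic nuclei were analysed from 2 tables. Per the file headers, the deposited columns hold the authors' normalised counts, a signal per region and library with 1 decimal, by a method not given in the sources used here. The authors' log2 fold changes and their FDR values (adjusted p-values) are also deposited there. Per the submitters' processing notes the build was mm9, and the notes list, without a role, MACS2, DESeq2 1.16.1, Bowtie2 2.2.6, Bowtie 1.2, HTSeq 0.6.0, STAR 2.5.2b and CASAVA 1.8. Region names call the ATAC regions merged peaks and the H3K27ac regions partitioned.

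From the signal, log2(signal + 1) was fitted with limma 3.58.1 (R 4.3.3, trend, 8 group means) over all 16 libraries of an assay, without the regions in the lowest 10% of mean signal, with Benjamini-Hochberg adjustment over all regions tested. The fit was tested on simulated data. Input libraries were not used. Depth is unknown, so no counting interval is given. Positions count from 1. Tables and figures used pandas 2.3.3 and Matplotlib 3.10.9.

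Named were the 10 regions called higher and the 10 called lower with the smallest p and 1 sign in 8 pairs, the 2 with the smallest p per treatment comparison within a sort (1 per difference between sorts), the 5 strongest and 2 weakest, the 5 hosts with most open regions, up to 5 hosts with calls all in 1 direction or in both, and the neighbours of each limit. The members, lists and rules were chosen with earlier results of these data known. Alternatives were pseudocounts of 0.1 and 5, an adjusted p under 0.01, quantile normalization, no filter, a replicate block, other limits of length and containment, and each library left out. Leaving out the libraries that stood apart, and fits within replicate 1, replicate 2, the set of 6 or the other 10, were chosen after seeing the data. The fits within replicate 1, replicate 2, the set of 6 or the other 10 used treatment and sort as terms in place of 8 group means.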

Additional observations from a re-analysis of the deposited data

Results flagged for a closer look

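In 46 groups of 8 libraries, the values of the 20 named regions and 3 library measures were searched for a library far from the other 7 (gap to the nearest library over the whole range above 0.526, which chance alone passes in about 1 of 20 groups), and 4 groups had one. H4 reached 10.8 in Fed GFPneg replicate 2, against 5.3 to 7.4 in the other GFPneg libraries. L1 reached 15.1 in Lep2 GFPpos replicate 2, against 4.0 to 9.1 in the other GFPpos libraries. L2 reached 24.3 in Lep2 GFPneg replicate 2, against 13.1 to 17 in the other GFPneg libraries. The share of open regions in broad H3K27ac listed at 0 was 3.37% in Fast GFPpos replicate 2, against 0.312 to 1.57% in the other GFPpos libraries.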

How the results depend on the processing

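Depth is unknown, since the files hold no read totals, and each treatment group had 2 libraries. Under quantile normalization the sort calls were 530 higher and 573 lower, of 4471 ATAC regions called, against 556 and 511 in the main fit. The split moved by less than 10 percentage points, but the larger side changed from higher to lower.

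An adjusted p under 0.01 gave 364 open regions called between sorts, of 1360 ATAC regions called. It gave 318 hosts called in H3K27ac, of 3114 H3K27ac regions called. Hosts of 15000 bp or more left 3214 hosts, 427 of them called, with a median of 2 open regions and 10.4% of the ATAC signal. A limit of 1000 bp on open regions gave a median signal of 10.6 and 8.06% of the ATAC signal. For Lep2 against Fast in GFPpos, a pseudocount of 5 gave 2 calls. Without the libraries that stood apart, Fast against Fed gave 8, Lep2 against Fast 1 and Lep24 against Fast 11 in GFPpos, and the differences between sorts gave 1 each for Fast against Fed and Lep24 against Fast. In GFPpos the same fit also called other ATAC regions in Fast against Fed and Lep24 against Fast, so these calls were not particular to broad H3K27ac. Replicate 2 libraries alone gave 268 sort calls, and the 10 H3K27ac libraries 3588 called hosts. The causes were not tested.

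With each library left out in turn, sort calls ranged from 648 to 1396 and called hosts from 458 to 1018. The same sort fits called 2457 to 5686 of all ATAC regions and 5188 to 13898 of all H3K27ac regions. In GFPpos, Fast against Fed ranged from 0 to 304, Lep2 against Fast from 0 to 327 and Lep24 against Fast from 0 to 316, and in GFPneg Lep2 against Fast from 0 to 1 and the other 2 stayed at 0. Differences between sorts ranged from 0 to 119 for Fast against Fed, to 107 for Lep2 against Fast and to 106 for Lep24 against Fast. Of the H3K27ac libraries, those that moved the count of hosts by more than 1.5 times were Fast GFPpos replicates 1 (461) and 2 (483), Fast GFPneg replicates 1 (461) and 2 (510), and replicate 2 of Fed GFPpos (472) and Lep24 GFPpos (458).

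No label says what a replicate number marks. In ATAC, deviations of same-numbered libraries from their group means correlated at 0.02 to 0.18, over 0.1 in 17 of 28 pairs of groups, so pairing was not taken as shown. In H3K27ac they correlated at 0.34 to 0.55 in the 15 pairs among Fed, Lep2 and Lep24, whose replicate 1 libraries form the set of 6, and at -0.16 to 0.02 in the 13 pairs with a Fast group, so there the number marks that set in 3 of 4 treatments. A replicate block gave 1478 sort calls, 2 for Lep2 against Fast in GFPpos and 1688 called hosts, and a block by pair of libraries gave 1453 and 2674. Among all ATAC regions the sort calls were 6205 and 6123, and among all H3K27ac regions 18444 and 27791. Of the named regions, 1 lost its call (H5, above), none reversed, and 4 gained one in at least 1 alternative, all in treatment comparisons of GFPpos.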
